A study of Mus musculus with 161 samples.

Results

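Deletion of residues 264-288 overlaps the first zinc finger of CTCF. Chromosome conformation was measured by 5C (carbon-copy chromosome conformation capture) in 2 libraries of the transgene line with this deletion, called 264-288 below, out of 91 5C libraries of the series. They were chosen by their labels alone. They were compared with 14 libraries of the line with full-length CTCF. 5C uses primers on restriction fragments to count how often pairs of fragments were ligated, here over chrX:98831149-103431148 (mm9), the region around Xist and Tsix.

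All cells were male mouse embryonic stem cells of the E14Tg2a line in which both the control and the mutant groups carry an endogenous CTCF tagged with the auxin-inducible degron AID and with eGFP, and the plant F-box protein Tir1, which auxin needs to degrade AID-tagged proteins. A cDNA of FLAG-tagged CTCF fused to mRuby2, under a promoter induced by doxycycline (dox), was knocked in at the Tigre locus. The groups 264-288 (2 libraries, line EN213.1) and full-length (14 libraries, line EN133.10) were treated for 4 days with auxin and dox, as were the deletion 179-265 (2 libraries, line EN212.1) and the substitution H288R (2 libraries, line EN216.1). The group without dox (2 libraries) is the full-length line treated for 4 days with auxin only, so that endogenous CTCF is degraded and no transgene is induced. Each mutant is a single clonal line, and a difference between lines cannot be told apart from a difference between clones. The amount of transgenic CTCF was not among the values analysed here, and its part in the differences was not tested.

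CTCF is a zinc-finger protein that binds DNA at a directional motif. Cohesin, a ring-shaped complex, extrudes loops of chromatin and is held where it meets CTCF, mostly when the motif points towards the incoming loop. Contacts are therefore enriched between motifs that face each other and depleted across topologically associating domain (TAD) boundaries. Around Xist, the noncoding RNA that coats the inactive X chromosome, a strong boundary separates the domain of Tsix, its antisense repressor, from the domain that holds the start of Xist and Rlim, a ubiquitin ligase that activates Xist.

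The 75 coding bases of the deleted residues are given first because they define the mutant. In the mouse reference they lie at chr8:108188764-108188838 (mm9, plus strand), in exon 4 of 12 of Ctcf, and encode 25 of 736 residues. Capitals mark codon 288, the last one deleted and the residue that is changed in H288R. The sequence is that of the reference, since that of the transgene is not used here.
Ctcf codons 264 to 288: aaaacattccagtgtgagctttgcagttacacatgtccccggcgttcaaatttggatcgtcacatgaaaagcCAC

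The sites that CTCF can occupy in the region were taken from a deposited list of FLAG–CTCF peaks of full-length cells, of which 78 lie in the region, in 54 of 230 bins of 20 kb. Sequences of mm9 under these peaks, each 200 bases long, were searched on both strands for the core of the CTCF motif, taken as CC, any 3 bases, AG, any 2 bases and GGC. A match was present in 39 of 78 peaks, 50.0%, compared with 51.3% of 1128 peaks of chromosome X and 2.28% of 23000 windows of 200 bases that tile the region. The 8 matches below are a selection from the boundary bins and their neighbours on which the results turn, with the match in capitals. Bins 30, 91, 93 and 220 each hold a further match that is not printed, as is that of bin 17 at boundary 1. Those on the minus strand are printed as their reverse complement.
Boundary 2, bin 30, no gene (chrX:99414647-99414686, plus strand): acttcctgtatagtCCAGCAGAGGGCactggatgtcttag
Before boundary 2, bin 28, no gene (chrX:99384761-99384800, minus strand): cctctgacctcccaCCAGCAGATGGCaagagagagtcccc
Boundary 3, bin 82, intron of 4930519F16Rik (chrX:100455379-100455418, plus strand): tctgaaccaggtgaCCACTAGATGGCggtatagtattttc
Before boundary 4, bin 91, intron of Tsix (chrX:100639272-100639311, minus strand): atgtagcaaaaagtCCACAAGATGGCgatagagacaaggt
Boundary 4, bin 93, exons of Xist and Tsix (chrX:100677059-100677098, plus strand): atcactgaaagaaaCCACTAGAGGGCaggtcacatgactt
Before boundary 5, bin 118, upstream of Rlim (chrX:101185950-101185989, minus strand): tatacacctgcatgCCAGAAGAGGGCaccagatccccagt
Before boundary 6, the bin next to it, no gene (chrX:103208759-103208798, minus strand): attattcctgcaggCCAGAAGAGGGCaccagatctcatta
Boundary 6, bin 220, intron of Cox7b (chrX:103214281-103214320, plus strand): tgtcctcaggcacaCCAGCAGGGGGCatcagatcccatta
In these examples, matches within the boundary bins were on the plus strand and matches in the bins before them on the minus strand. Boundary bin 5 held no peak, and the peak shown for it lies in bin 118.

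The 2 libraries of 264-288 held 12326617 and 9529055 counts. The totals of full-length libraries ranged from 5262254 to 23096139 over the 12 with a complete count matrix. Between 37.9% and 38.7% of primer pairs had no count in 264-288, within the 30.8% to 60.8% of full-length libraries. The labels do not say whether libraries came from separate cultures, so p-values measure the spread between these libraries only. Full-length libraries fall in several ranges of library numbers, and 2 of them in the same range as 264-288. This range is called the same run below, but it is taken from the numbers alone, and whether it marks a shared preparation is not stated. The values of these 2 libraries are given where they matter.

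Insulation at TAD boundaries was lower in 264-288 than in full-length cells. The insulation score is the negative log2 ratio of the mean contact of the 100 kb before with the 100 kb after a bin to its mean over all bins, so that a higher score means fewer contacts across the bin. Averaged over the 6 boundaries that the study lists, it was 0.42 and 0.43 in the 2 libraries of 264-288. In full-length libraries it ranged from 0.54 to 0.71 (median 0.60, 0.61 ± 0.040, SD, n = 14), and in those of the same run it was 0.59 in both. The groups did not overlap, with a difference of -0.18 and an adjusted p of 0.0405 (two-sided exact permutation test, adjusted over 17 single values). This p rests on the smallest value that 2 against 14 libraries allow, 0.0167, which 7 of the 17 single values reached.

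The score was lower at 4 of the 6 boundaries. At boundary 5 (chrX:101211149-101231148), which separates the domain of Rlim from the next one, the score was 0.43 and 0.45 in 264-288. Full-length libraries ranged from 0.63 to 0.79 there, with a median of 0.71. The difference was -0.27 ± 0.036 (SE, adjusted p = 5.32e-06, limma over 193 bins), and the groups did not overlap.

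At boundary 3 (chrX:100451149-100471148), within the noncoding gene 4930519F16Rik, 264-288 scored 0.19 and 0.12 against 0.30 to 0.44 in full-length libraries (median 0.39). Here too all 264-288 values lay below the lowest full-length library, with a difference of -0.23 ± 0.033 (SE, limma adjusted p = 1.12e-05). Boundary 2 (chrX:99411149-99431148), next to Cited1, which encodes a transcriptional coactivator, scored 0.43 and 0.42 against 0.55 to 0.85 (median 0.66), a difference of -0.23 ± 0.053 (SE, limma adjusted p = 0.00136). Boundary 6 (chrX:103211149-103231148) overlaps Cox7b, a subunit of cytochrome c oxidase, and Atp7a, a copper transporter. Its score was 0.43 and 0.47 against 0.60 to 0.91 (median 0.68), a difference of -0.24 ± 0.052 (SE, limma adjusted p = 7.83e-04).

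The other two boundaries did not pass the test. At boundary 4 (chrX:100671149-100691148), the bin that holds the start of Xist, 264-288 scored 1.26 and 1.25, inside the full-length range of 1.15 to 1.68 (median 1.36, difference -0.13 ± 0.085, SE, limma adjusted p = 0.245). At boundary 1 (chrX:99151149-99171148), within Nhsl2, the scores of -0.22 and -0.13 were inside the range of -0.26 to -0.09 (median -0.19, limma adjusted p = 0.860). In full-length cells as well, boundary 1 had more contacts across it than the mean bin of the region.

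**Figure D1:**
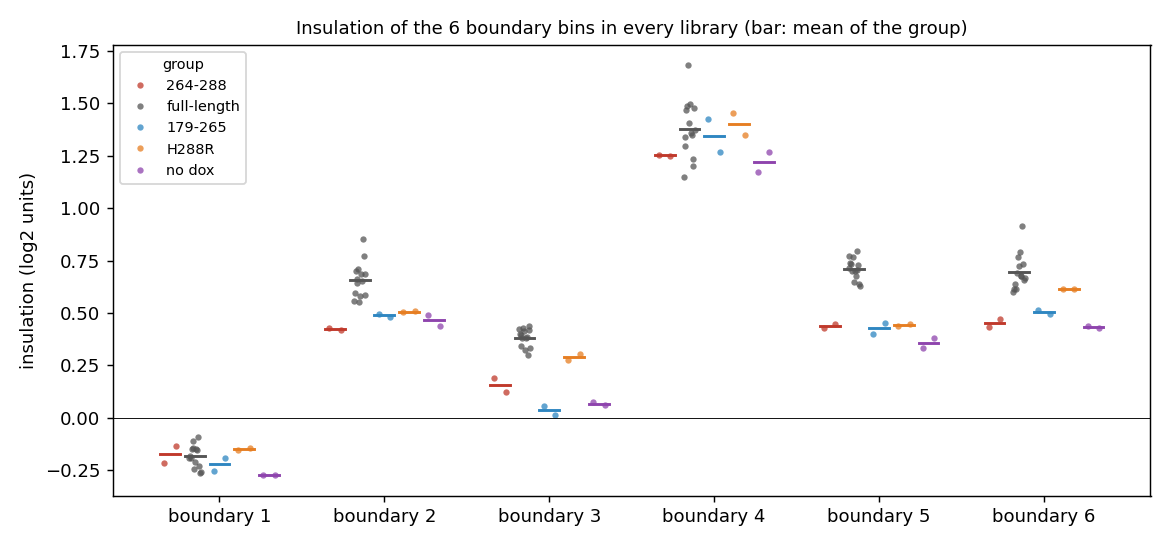
Insulation score (log2 units, vertical axis) of the 6 boundary bins in every library of 264-288, full-length, 179-265, H288R and no dox; points are libraries and bars group means. The 264-288 points lie below all full-length points at boundaries 2, 3, 5 and 6, and among them at boundaries 1 and 4.

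Changes were not limited to the 6 listed bins. Of 193 bins with a score in every library, 44 had a lower score in 264-288 (22.8%) and 36 a higher one (18.7%), 41.5% in all (limma adjusted p under 0.05). Without replicate 1 of 264-288 the counts were 23 lower and 24 higher, and without replicate 2 they were 22 and 20. Because neighbouring bins share bin pairs, these fall into 11 runs of lower and 11 runs of higher bins. With only the same-run full-length libraries, 84 bins were called, and 71 of the 80 bins were called in the same direction in both fits.

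The largest drops formed a block over Tsix, just before boundary 4. The bin with the largest drop, bin 91 (chrX:100631149-100651148), lies within Tsix and holds 3 peaks. It scored 1.02 and 1.07 in 264-288, and between 1.38 and 1.66 in full-length libraries (median 1.46), a difference of -0.46 ± 0.063 (SE, limma adjusted p = 6.90e-06). The next bin, bin 92, which holds the 3′ part of Xist, scored 1.33 in both 264-288 libraries against 1.55 to 1.98, a difference of -0.36 ± 0.075 (SE, limma adjusted p = 7.20e-04). Bin 90, with the start of Tsix, scored 0.47 and 0.46 against 0.76 to 0.92, a difference of -0.33 ± 0.033 (SE, limma adjusted p = 1.07e-07). The insulation peak between Tsix and Xist was lower on its Tsix side, whereas the bin at the start of Xist itself was not called.

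The other two of the 5 largest drops lay directly before boundaries 2 and 5. Bin 29 (chrX:99391149-99411148) scored 0.47 and 0.49 against 0.71 to 0.94 in full-length libraries (limma adjusted p = 2.09e-05). The bin just before boundary 5 (chrX:101191149-101211148), beside Rlim, scored 0.59 and 0.58 against 0.82 to 1.06 (limma adjusted p = 5.32e-06). In each of these 5 bins the groups did not overlap, which is no further support, since they were picked as the largest called drops.

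The largest rises lay inside domains rather than at boundaries. Of the 5 largest, 4 lay in the segment before boundary 1, and among them bin 11 holds the start of Nhsl2 and bins 12 and 13 lie within it. Bin 12 (chrX:99051149-99071148) scored -0.33 and -0.31 in 264-288, and between -0.67 and -0.49 in full-length libraries (median -0.59), a difference of 0.26 ± 0.039 (SE, limma adjusted p = 1.26e-05). The fifth, bin 130 (chrX:101411149-101431148), lies past boundary 5, and scored 0.38 and 0.47 against 0.07 to 0.26 (limma adjusted p = 2.06e-05). The profile as a whole was flatter. Its SD over the 193 bins was 0.41 in both 264-288 libraries, and 0.45 to 0.51 in full-length libraries (a description without a test).

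**Figure D2:**
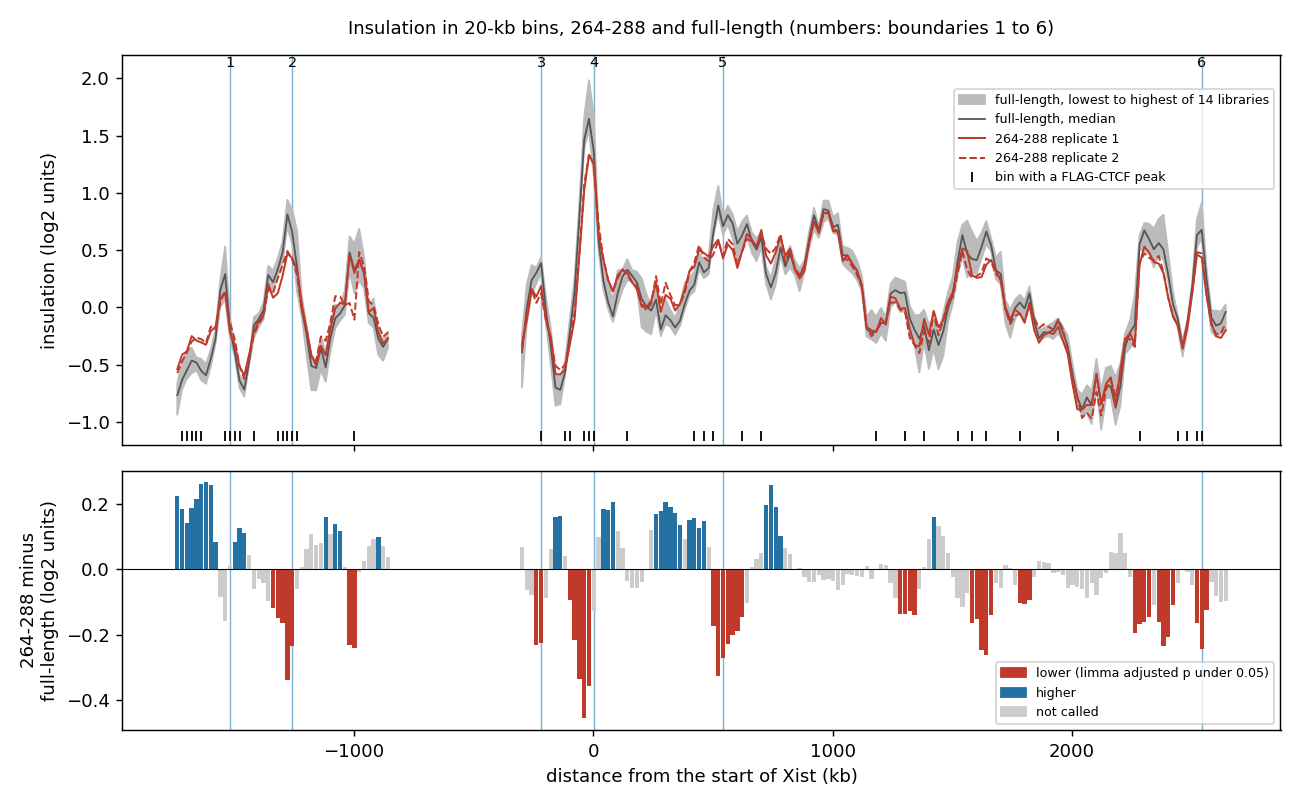
Upper panel, insulation score (log2 units) against distance from the start of Xist (kb) in both 264-288 libraries, with the median and the range of 14 full-length libraries in grey; numbers and blue lines mark boundaries 1 to 6, ticks bins with a FLAG–CTCF peak. Lower panel, 264-288 minus full-length for each bin, coloured where limma called it; the deepest drop, -0.46, is just before boundary 4, and 9 neighbouring bins before boundary 1 are called higher.

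Called bins were counted by their level in full-length cells. Of the 65 bins with a full-length score above 0.3, 29 were called lower (44.6%) and 4 higher, with a median difference of -0.10. Of the 39 bins with a full-length score below -0.3, none was called lower and 14 were called higher (35.9%), with a median of 0.07. Over all bins the median difference was -0.02. Since the full-length score enters both quantities, this is given as a description.

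They were also counted by the presence of a FLAG–CTCF peak, as a description without a test. Of 41 such bins, 18 were called lower (43.9%) and 9 higher, and their median difference was -0.09. Of the bins without a peak, 26 were called lower (17.1%) and 27 higher, with a median of -0.02. Within 60 kb of a boundary, 18 of 42 bins were called lower, whereas between 80 and 200 kb away 20 of 55 were called higher and 8 lower.

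Drops also occurred far from the listed boundaries, in the large domain between boundaries 5 and 6, where 25 of 99 bins were called lower (25.3%, against 22.8% of all bins) and 5 higher. One run of 5 lower bins (chrX:102251149-102351148) covers Magee1 and 2610029G23Rik, with differences between -0.26 and -0.14. Further runs of 4 bins each lie at chrX:101951149-102031148, with differences between -0.14 and -0.13, and at chrX:102931149-103011148, which includes Fgf16, a fibroblast growth factor gene. In full-length cells the median score reached 0.66 in the run at Magee1 and 0.67 in that at Fgf16, close to the 0.68 of boundary 6, although neither is among the 6 listed boundaries.

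Of 19 genes of the region chosen by name, 14 had their start in a bin with a score, of which 5 bins were called lower, 3 higher and 6 not, beside 22.8% lower and 18.7% higher among all bins. The lower bins were those of Tsix, Tsx, Rlim, Cox7b and Atp7a. At Tsx, a testis-expressed gene next to Tsix, the score was -0.10 and -0.04 against 0.09 to 0.26 in full-length libraries (limma adjusted p = 2.09e-05). At Rlim it was 0.54 and 0.47 against 0.62 to 0.86 (limma adjusted p = 0.00196). The higher bins included those of Nhsl2 and Cdx4, a homeobox gene. At Cdx4, 264-288 scored -0.58 and -0.51 against -0.86 to -0.58 (limma adjusted p = 0.0140), where the lower 264-288 library was inside the full-length range, and the sign of this difference turned with a window of 200 kb. The bins of Xist, Chic1, Nap1l2, Zcchc13, Cited1 and Hdac8 were not called.

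The question of whether TADs were less separated was also asked of the map itself. For this, each contact was divided by the mean at the same distance in the same library (observed over expected), and pairs of bins that cross at least 1 boundary were compared with pairs within a domain, from 40 to 500 kb. A pair with an end in a boundary bin was counted as crossing. The values of single boundaries below leave such pairs out. On the log2 scale the crossing pairs were depleted by 0.22 in both libraries of 264-288, -0.222 and -0.224. In full-length libraries the value ranged from -0.426 to -0.299 (median -0.358). The 264-288 libraries thus lay above every full-length library, with a difference of 0.13, or 1.09-fold more crossing contacts relative to contacts within domains (adjusted p = 0.0405, two-sided exact permutation test).

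The separate boundaries differed in this respect, and these values are given without a test. Pairs across boundary 5 alone stood at -0.39 and -0.37 in 264-288 and between -0.91 and -0.61 in full-length libraries. Those across boundary 4 alone stood at -0.92 and -0.90 against -1.31 to -0.96, the lowest mean of the 6 boundaries in both groups. Pairs across boundary 6 alone, at 0.08 and 0.12, lay within the full-length range of 0.02 to 0.23. Pairs across both of 2 neighbouring boundaries stood at -0.19 and -0.17 against -0.59 to -0.29.

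Within domains, contacts fell in 3 of the 7 segments that the boundaries define, rose in 1 and did not pass the test in 3. The segment before boundary 1, which holds the start of Nhsl2, had a log2 observed over expected of 0.29 and 0.32 in 264-288, and of 0.45 to 0.56 in full-length libraries (median 0.49). This is a 0.877-fold level (adjusted p = 0.0405, exact permutation test). The segment between boundaries 2 and 3 stood at 0.28 and 0.31 against 0.38 to 0.53, a 0.911-fold level (adjusted p = 0.0405, exact permutation test). With the mean of logarithms in place of the logarithm of the mean this call was lost (adjusted p = 0.460, exact permutation test).

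Between boundaries 4 and 5, the domain of Rlim, both 264-288 libraries stood at -0.01, below the 0.07 to 0.20 of full-length libraries (median 0.14), a 0.902-fold level (adjusted p = 0.0405, exact permutation test). Xist starts in the bin of boundary 4, and boundary bins are not part of the segments. Between boundaries 5 and 6 the level was higher, 0.09 in both libraries against 0.02 to 0.06, a 1.03-fold level (adjusted p = 0.0405, exact permutation test). This segment holds 83.3% of the bin pairs within domains and thereby sets much of the expected level, so its value is not independent of the other segments. With median bins its call was lost (adjusted p = 0.0850, exact permutation test).

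The remaining segments overlapped with full-length libraries. Between boundaries 1 and 2 the values were 0.10 and 0.11 against 0.04 to 0.12. Between boundaries 3 and 4, the domain of Tsix, Tsx, Chic1 and Cdx4, they were 0.36 and 0.32 against 0.30 to 0.41. The short segment after boundary 6, with 28 bin pairs, stood at -0.12 and -0.16 against -0.42 to -0.13 (adjusted p = 0.106, exact permutation test), where the full-length libraries of the same run were -0.13 and -0.16.

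**Figure D3:**
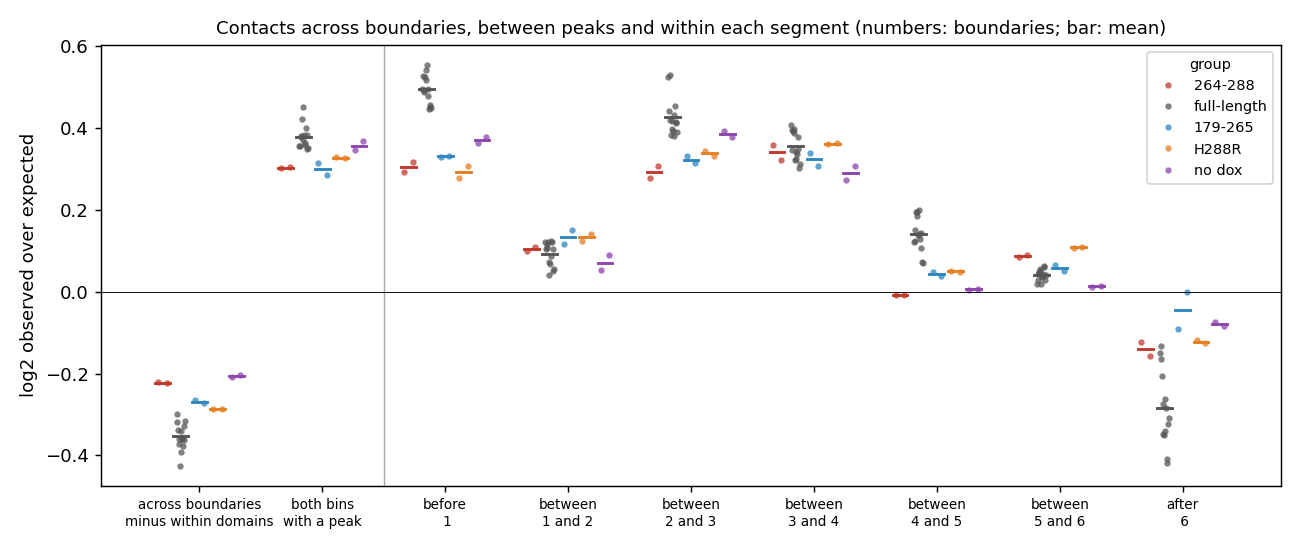
Log2 observed over expected (vertical axis) in every library for pairs across boundaries minus pairs within domains, for pairs of bins with a peak and for each segment; points are libraries, bars group means, colours groups. The 264-288 points lie above full-length for crossing pairs (-0.22) and between boundaries 5 and 6, and below it for peak pairs, before boundary 1, between 2 and 3 and between 4 and 5.

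The decay of contacts with distance gave no call over all 14 full-length libraries. In 6 classes from 40 kb to over 2000 kb, the difference in log2 contact per bin pair lay between -0.04 (100 to 200 kb) and 0.08 (1000 to 2000 kb, adjusted p of 0.535 or more in all classes, exact permutation test). Of the full-length libraries, 2 from a later run of library numbers, labelled replicates 3 and 4, stood apart, with fewer contacts at 100 to 200 kb and more over 1 Mb. They were left out in an alternative chosen after their values were seen. At 100 to 200 kb, 264-288 stood at 2.03 and 2.04 against 2.073 to 2.146 in the other 12 libraries, and at 1000 to 2000 kb at -1.48 in both against -1.78 to -1.51. The differences were then -0.06 and 0.12, without overlap. As the 2 libraries were left out for these same values, this is a description without a test. The full-length libraries of the same run, at 2.08 and 2.11 and at -1.59 and -1.56, lay on the same side of 264-288 as those 12. With median bins the class of 100 to 200 kb was called over all 14 libraries, at -0.06 (adjusted p = 0.0405, exact permutation test).

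Contacts over 1 Mb stood at -1.996 and -2.01 relative to the mean over all bin pairs, against -2.30 to -1.62 in all full-length libraries, a difference of 0.06 (adjusted p = 0.680, exact permutation test). Leaving out 1 library moved this difference to between 0.04 and 0.09. Against the 12 libraries, which spanned -2.30 to -2.02, it was 0.12, again as a description without a test.

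Contacts between bins that both hold a FLAG–CTCF peak were lower on average. Over 344 such pairs at 100 to 1000 kb, log2 of the mean observed over expected was 0.30 in both 264-288 libraries, and 0.35 to 0.45 in full-length libraries (median 0.37), a 0.949-fold level (adjusted p = 0.0405, exact permutation test). When the logarithms of single pairs were averaged instead, the difference turned to 0.04 and was not called. The sign therefore depends on how pairs are averaged. The upper decile of observed over expected among these pairs was 1.94 and 2.06 in 264-288 and 2.21 to 2.76 in full-length libraries, whereas the median pair, at 1.08 and 1.13, was near the full-length values of 1.02 to 1.09.

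The strand of the motif letters divided these pairs, in classes chosen after the data were seen and therefore described without a test. In 25 pairs of bins at 100 to 1000 kb, the match of the first bin was on the plus and that of the second on the minus strand, so that the matches face each other. These pairs stood at 0.53 and 0.56 in 264-288 and at 0.62 to 1.05 in full-length libraries (median 0.86), a difference of -0.32, or of -0.15 when logarithms of single pairs were averaged. Of them, 7 lie within a domain, where the values were 0.36 and 0.64 against 0.88 to 1.31. The other 18 cross a boundary or have an end in a boundary bin, so that pairs joining the ends of a domain are among them. Bins 93 and 118, described below, are such a pair. At 0.49 and 0.63 these 18 pairs lay inside the full-length range of 0.49 to 0.96. In 48 pairs with both matches on the same strand, 264-288 stood at 0.16 and 0.30, within the full-length range of 0.11 to 0.33. In 25 pairs of the order minus then plus, 264-288 stood at 0.05 and 0.19 against -0.27 to 0.16. Only the facing pairs, of these 3 orders, were below all full-length libraries.

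Single bin pairs were tested over the whole map from 40 to 1000 kb. Of 7782 pairs, 14 were called lower (0.18%) and 12 higher (0.154%) in 264-288, 0.334% in all (limma adjusted p under 0.05). These counts are not stable. No pair was called when only the same-run full-length libraries were used, where 765 pairs had an unadjusted p under 0.05, and own iterative correction of the counts left 3 lower and 1 higher. Leaving out any 1 library other than full-length replicates 12 and 13 and the replicate 3 outside this run brought the calls to between 0 and 9 lower and between 0 and 6 higher. The pairs below are therefore described mainly by their levels. Over all pairs the median log2 difference was 0.08 (0.02 against the libraries of the same run), and it was 0.03 within domains, 0.13 across 1 boundary and 0.24 across 2 or more.

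Among pairs called higher, 8 of 12 cross boundary 5 alone. Of the 7782 tested pairs, 2514 cross 1 boundary. How many cross boundary 5 alone was not counted, so no concentration of calls at boundary 5 is read from these counts. Bins 116 and 127 were at an observed over expected of 0.65 and 0.66 against 0.34 to 0.50, and bins 118 and 123, from Rlim across the boundary, at 0.58 and 0.64 against 0.35 to 0.45. Bins 82 and 126, from boundary 3 to past boundary 5, were at 0.86 and 1.01 against 0.26 to 0.56. In each of these pairs the groups did not overlap, which is no further support, since they were picked from the called pairs.

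Among pairs called lower, 6 of 14 cross boundary 6 and connect the interior of the domain before it (chrX:102331149-102671148) with Atp7a or with Tlr13, a receptor of innate immunity. Of the pairs called higher, 1 also crosses boundary 6. How many of the tested pairs cross it was not counted, so no concentration of calls at this boundary is read from these counts. The largest drop joined bin 183 to a bin of Tlr13 that lies 860 kb away. This pair was at 0.62 and 0.49 in 264-288 and 1.06 to 2.05 in full-length libraries (log2 difference -1.31, limma adjusted p = 0.0201). Within the domain of Xist and Rlim, 4 of 277 tested pairs were called lower and none higher. Bins 100 and 116, for example, were at 1.07 and 1.06 against 1.30 to 1.65.

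One of the called pairs joins the 2 ends of that domain. Bins 93 and 118, 500 kb apart, hold the start of Xist and the start of Rlim, and each has 3 peaks, with the facing matches printed above. Their observed over expected was 1.43 and 1.68 in 264-288, and 2.11 to 3.08 in full-length libraries (median 2.41). It was 2.41 and 2.98 in the full-length libraries of the same run. The log2 difference had an SE of 0.13 and a limma adjusted p of 0.0492, which corresponds to a 0.648-fold level, and the groups did not overlap. This pair lies outside the 8 largest drops and was chosen after its values were seen.

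**Figure D4:**
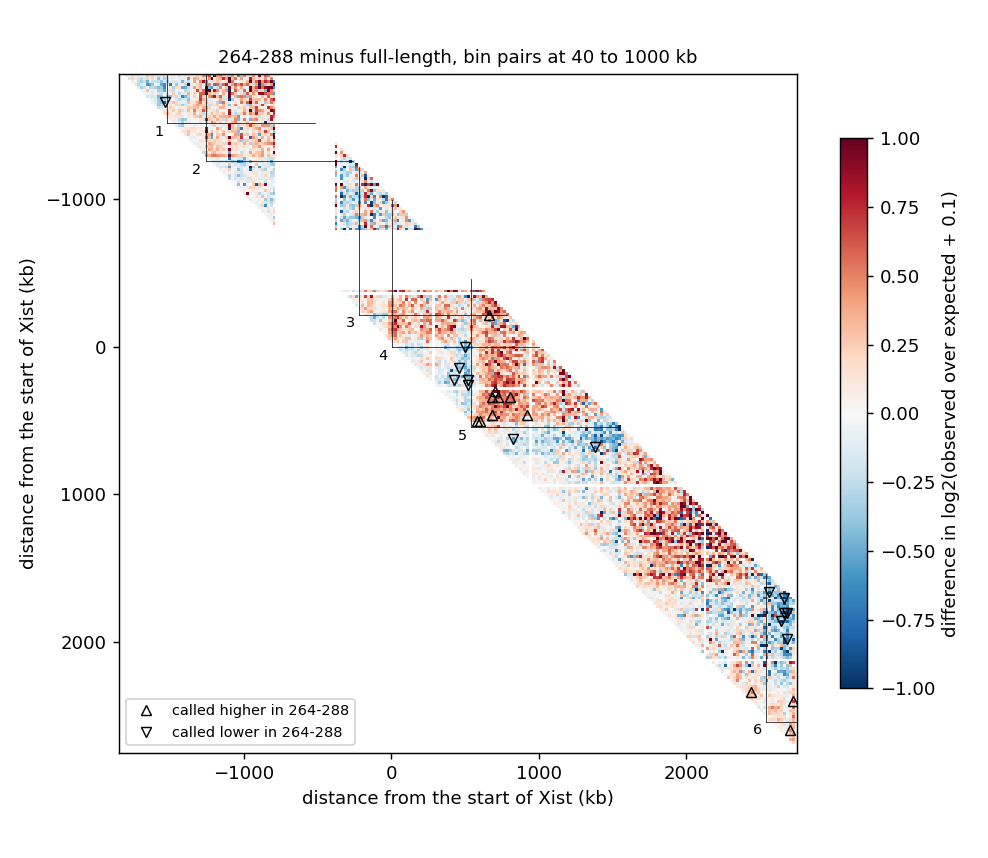
Difference of group means, 264-288 minus full-length, in log2(observed over expected + 0.1) for bin pairs at 40 to 1000 kb; both axes give distance from the start of Xist (kb), numbers and lines mark boundaries, red is higher and blue lower in 264-288, white pairs were not measured, and triangles mark the 26 called pairs. A red field crosses boundary 5, next to a blue field in the domain between boundaries 4 and 5.

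The lines most like 264-288 were set beside it. The deletion 179-265 shares 2 residues with it, and H288R changes its last residue. Mean insulation over the 6 boundaries was 0.42 and 0.44 in 179-265, 0.51 and 0.52 in H288R, and 0.37 and 0.38 without dox, compared with 0.42 and 0.43 in 264-288. With 2 libraries a group, an exact permutation test cannot go below p = 0.333, so these means were not tested against each other. The values of 264-288 thus lay between those without transgene and those of H288R.

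In the fit over all bins, 264-288 differed from H288R in 1 of 193 bins (0.518%), which was lower by 0.18 (chrX:102451149-102471148, limma adjusted p = 0.0267). It differed from 179-265 in none, where 20 bins had an unadjusted limma p under 0.05. A difference at the boundaries is not excluded by this. At boundary 3, for example, 264-288 minus H288R was -0.13, with a 95% interval of -0.22 to -0.04 before adjustment (limma adjusted p = 0.109). At boundary 5 the same difference was -0.00, with an interval of -0.10 to 0.09. Single bin pairs gave 1 call against 179-265 (0.0129%), and none against H288R, where 401 of 7782 had an unadjusted limma p under 0.05.

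Against cells without dox, 264-288 differed in 11 bins (5.7%), of which 8 were lower (4.15%) and 3 higher (1.55%) in 264-288 (limma). None was a boundary bin, and at the 6 boundaries the differences lay between -0.04 and 0.10. The bins cluster on both sides of boundary 5. Bin 117, within Rlim, scored 0.42 on average in 264-288 and 0.68 without dox (limma adjusted p = 0.00218). Bins 121 and 122, past the boundary, were higher in 264-288, bin 121 with a mean of 0.57 against 0.39 (limma adjusted p = 0.00559). The 3 bins from Fgf16 to Atrx, which encodes a chromatin remodeller, were lower in 264-288, that of Atrx with a mean of 0.46 against 0.74 (limma adjusted p = 0.00395). No single bin pair was called against cells without dox, and 438 had an unadjusted limma p under 0.05.

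In contacts across boundaries, 264-288 (-0.222 and -0.224) stood closer to cells without dox (-0.209 and -0.203) than to 179-265 (-0.273 and -0.266) or to H288R (-0.287 in both). Within the domain between boundaries 4 and 5 its level of -0.01 was the lowest of the 5 groups, next to 0.01 without dox, 0.04 and 0.05 in 179-265, and 0.05 in H288R. Facing pairs stood at 0.43 to 0.57 in H288R, 0.45 to 0.64 in 179-265 and 0.45 to 0.57 without dox, which overlap with 264-288. These are levels side by side and were not tested, since the exact permutation test used for such single values cannot pass with 2 libraries against 2.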

How the data were processed

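5C libraries of chrX around Xist were analysed in 5 groups. For each library the authors deposited raw counts for each combination of forward and reverse primers, and a contact signal of primer pairs after iterative correction (ICE). The labels name Bowtie2, SAMtools, mm9 and mm10 without versions, and their roles are not given there. The deposited FLAG–CTCF peaks of full-length cells (dox for a shorter time) have coordinates and no height. The raw count matrices of 2 full-length libraries and 1 without dox were incomplete, so their totals were not used. The corrected matrices of 2 further full-length libraries were rectangular, with forward against reverse primers only, and on another scale. For every library the forward by reverse part of the corrected matrix was used and rescaled to a total of 1000000.

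The corrected signal was averaged into 230 bins of 20 kb. Insulation used windows of 100 kb with at least 50% of bin pairs measured, and observed over expected used bin pairs from 40 kb. The 17 single values were compared by two-sided exact permutation tests with Benjamini-Hochberg adjustment. Bins and bin pairs, the latter as log2(observed over expected + 0.1), were fitted with limma 3.58.1 (R 4.3.3) over the 5 groups, at an adjusted p of 0.05. Python 3.11.15, numpy 2.4.6, scipy 1.17.1 and pandas 2.3.3 were used, and the code was tested on simulated data. Gene positions and sequence are from the GENCODE annotation of NCBIM37 (mm9). Named loci were the 6 boundary bins, up to 5 bins and 8 bin pairs with the largest called differences in each direction, and bins with the start of 19 genes, of which 16 were found under that name. The libraries, lists and tests were chosen with earlier results of these data known. Alternatives were raw counts, own iterative correction with and without thinning to 5262254 counts, other windows, distances, pseudocounts and filters, fewer libraries and a replicate block. Another 2 were chosen after seeing the data, with the 10 full-length libraries that have complete counts and a symmetric matrix, and with the 12 other than those that stand apart by distance. Intervals and counts cover the spread between libraries only. Other samples of the series were not used. The values of 1 gene are not reported here.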

Additional observations from a re-analysis of the deposited data

How the results depend on the processing

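No called single value other than that of peak pairs changed sign under any alternative. In the order mean insulation, crossing against within, segment before 1, 2 to 3, 4 to 5, 5 to 6 and peak pairs, the differences were -0.174, 0.124, -0.287, -0.065, -0.136, 0.046 and -0.100 with raw counts, -0.180, 0.129, -0.188, -0.141, -0.140, 0.047 and -0.072 with own iterative correction, and -0.183, 0.128, -0.192, -0.143, -0.143, 0.045 and -0.063 after thinning. None passed there (adjusted p = 0.0534 or more, exact permutation test, with the 12 full-length libraries that have complete counts). With the 10 libraries chosen after seeing the data the differences were -0.181, 0.127, -0.189, -0.144, -0.140, 0.048 and -0.075 (adjusted p = 0.0736, exact permutation test). Against the 2 libraries of the same run they were -0.167, 0.106, -0.204, -0.192, -0.145, 0.051 and -0.066, where no test can pass (p = 0.333, exact permutation test).

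Paired by replicate number, in a replicate block, they were -0.140, 0.086, -0.208, -0.190, -0.131, 0.063 and -0.054 (p = 0.5, exact permutation test, the smallest that 2 pairs allow). The numbers share no stated culture or day, and same-numbered libraries of 264-288 and full-length correlated in their deviations at 0.20 and 0.01. The block called 28 bins higher and 32 lower, and 0 bin pairs, with 533 at an unadjusted limma p under 0.05.

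With median bins, segment 5 to 6 was 0.065 (adjusted p = 0.0850) and 100 to 200 kb -0.065 (adjusted p = 0.0405, both exact permutation tests). With means of logarithms, segment 2 to 3 was -0.075 and peak pairs turned to 0.042. With a peak in the bin or a neighbour, peak pairs were -0.033. With a 200-kb window the bins of Chic1 (-0.10) and Cdx4 (-0.0012) changed sign. Raw counts called 22 bins higher.

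Without the 2 full-length libraries that stand apart by distance (chosen after seeing the values), the 7 calls held. The differences at 100 to 200 kb, at 1000 to 2000 kb and over 1 Mb were then -0.059, 0.122 and 0.119. As the 2 libraries were left out for these same values, these differences are a description without a test.

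Bin pair calls, higher and lower, were 21 and 27 without those 2 libraries, 11 and 33 with raw counts, 1 and 3 with own correction, 0 and 0 after thinning (966 unadjusted) and against the same run, 0 and 1 with median bins, 2 and 8 with the 2 groups alone, 2 and 1 with the 10 libraries, 0 and 1 over all distances, 35 and 16 with a pseudocount of 0.5, and 30 and 21 with a mean count of at least 100.

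Leaving out each library in turn gave -0.187 to -0.175, 0.125 to 0.135, -0.202 to -0.178, -0.149 to -0.121, -0.154 to -0.144, 0.043 to 0.048 and -0.078 to -0.070, in the order above. The calls held in 14 of 16 cases and were lost without either 264-288 library, where 1 against 14 cannot pass. Without 264-288 replicate 1 or 2, mean insulation was -0.177 or -0.187, crossing against within 0.130 or 0.132, and peak pairs -0.075 or -0.077. Bins called higher numbered 20 to 38 and lower 22 to 46. They were 24 and 23 without replicate 1 of 264-288, and 20 and 22 without its replicate 2. Pairs called higher numbered 0 to 17 and lower 0 to 20, and at most 6 and 9 without any library other than full-length replicates 12 and 13 and the replicate 3 outside the run of 264-288. The 2 libraries of 264-288 limit every comparison.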
